A study of Gallus gallus with 4 samples.

Results

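The genes described here lay under 1 CPM in both control libraries of the chicken neural tube. They were found at 1 CPM or more in both libraries from cells sorted after electroporation with a plasmid for constitutively active MEK1. CPM is a gene's count multiplied by 1000000 and divided by the total count of its library. The rule further required the lower MEK1ca value to be at least 3 times the higher control value, and left out chromosome 16 and genes spanning 400 kb or more. It chose 71 of 17108 genes. The values of this very comparison chose the members, so their difference between the groups is given as a description, with no test.

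Neural tubes of chicken embryos were electroporated in ovo at stage HH 11, an early somite stage, with 5 bilateral pulses of 50 ms at 25 V. The empty expression plasmid pCIG, at 2 µg/µl, was given to the control group, and embryos of the MEK1ca group received pCIG-MEK1ca at 1 µg/µl together with pCIG at 1 µg/µl. Both plasmids carry GFP, and 18 h later sorting on GFP, with a DAPI gate for viability, gave the cells whose poly-A RNA was sequenced, pooled over embryos. There were 2 libraries per group. All cells of both groups had therefore been electroporated and expressed GFP. The MEK1ca group received a mixture of plasmids that both carry GFP, so sorting did not select for pCIG-MEK1ca itself. The authors describe co-transfection in this tissue as nearly complete. The plasmids were delivered to whichever cells took them up, not to a defined cell type. According to their labels the control libraries were taken over from an earlier series and analysed again, so any difference in when the groups were prepared cannot be told apart from the plasmid.

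MEK1 is the kinase that phosphorylates and activates ERK at the end of the RAS, RAF, MEK and ERK cascade, through which growth factors such as FGFs act on a cell. Active ERK enters the nucleus, where it phosphorylates transcription factors bound at immediate early genes. The products of these genes, together with ETS factors, then act on later target genes, among them feedback inhibitors of the pathway. In the chick embryo ERK activity is high at the caudal end, where FGF8 keeps progenitors immature, and low in the more rostral neural tube that is already differentiating.

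The count table carries Ensembl identifiers, and no table used here pairs them with gene symbols. The members are therefore named by their position on the galGal4 build, no function is assigned to any of them, and lists of ERK targets or of markers for neural tube and other cell types could not be applied. Identifiers are given only for the 2 members with the highest mean CPM in MEK1ca. Library totals ran from 63637195 to 79064166 counts, so that 1 CPM stood for 63.6 to 79.1 counts. Counts of MEK1ca replicate 2 were mostly even numbers, for members in 93.0% of cases against 52.1% in MEK1ca replicate 1, and counting intervals take no account of this. In bulk libraries, more cells expressing a gene and more RNA per cell cannot be told apart.

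In the pCIG libraries 5872 genes lay under 1 CPM in both samples, and nearly all of them stayed there in MEK1ca. Of these, 5625 were also under 1 CPM in both MEK1ca libraries, and 2325 had 0 counts in all 4. A further 60 genes passed 1 CPM only in MEK1ca replicate 1 and 63 only in replicate 2. The 124 genes that passed it in both divided into 52 under the 3-fold limit and 72 above it, of which 1 lay on chromosome 16 and was left out. The members thus made up 1.21% of the genes under 1 CPM in the controls.

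Applied in the reverse direction, the same limits and exclusions found 2 genes. These lay on chromosome 17 at 5881860 to 5902534 and on chromosome 2 at 25215575 to 25351551. Their values were close to the limits, at 1.03 and 1.05 CPM in pCIG against 0.314 and 0.338 in MEK1ca for the former, and 1.23 and 1.18 against 0.361 and 0.364 for the latter. Before the fold limit, 71 genes went from at least 1 CPM in both pCIG libraries to under 1 CPM in both MEK1ca libraries, against 124 in the opposite direction. The plot of pCIG against MEK1ca levels marks both sets. Its axes are those of the members' rule, whereas the reverse rule used the lower pCIG and the higher MEK1ca value. The sides of its diagonal can therefore not be compared directly.

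**Figure D1:**
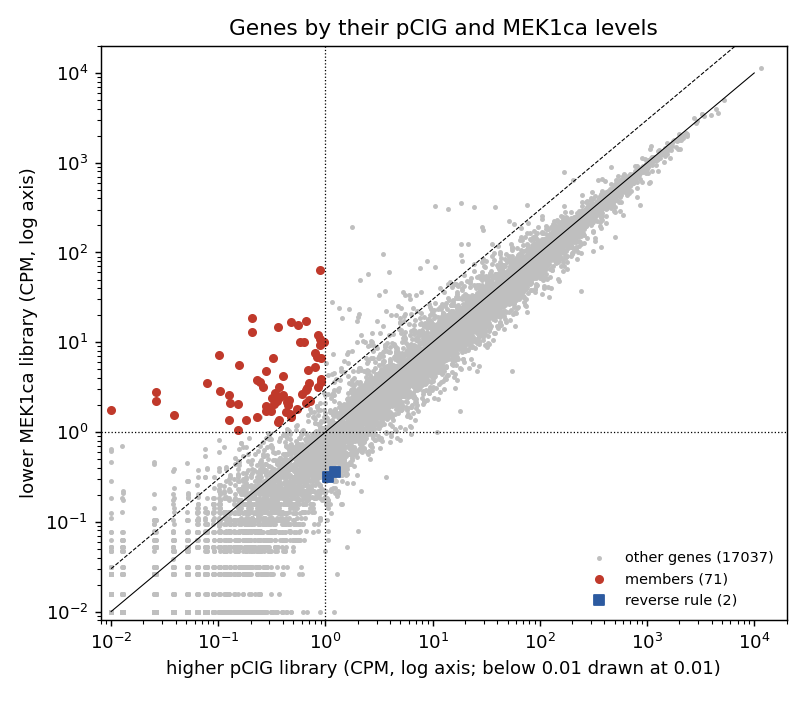
Each gene by the higher of its 2 pCIG values (x axis) and the lower of its 2 MEK1ca values (y axis), in CPM on log axes. Dotted lines mark 1 CPM, the solid line equal values and the dashed line the 3-fold limit. The 71 members (red) occupy the upper left, and the 2 genes of the reverse rule (blue squares) lie just past the 1 CPM line.

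The word silent needs a qualification from the control values. In pCIG, 1 member had 0 counts in both libraries, 3 more had 0 counts in one library, and the other members were counted in both. The median member had 25 counts in pCIG replicate 1 and 24 in replicate 2, or 0.325 and 0.304 CPM. In both pCIG libraries 46 members were under 0.5 CPM, and in both 14 members were at 0.5 CPM or more. The controls therefore held a low but countable signal for most members, with 0.909 and 0.961 CPM as the highest values in replicates 1 and 2.

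Together the members made up 27.2 and 25.6 CPM of the pCIG libraries, and 558 and 443 CPM of the MEK1ca libraries. Of the summed member counts in MEK1ca, the single most abundant member held 24.1% in replicate 1 and 14.4% in replicate 2. The median member had 3.58 CPM in MEK1ca replicate 1 and 3.14 CPM in replicate 2. Mean MEK1ca levels were under 5 CPM for 48 members, 5 to 10 CPM for 10 members and at least 10 CPM for 13 members. The lowest count of any member in MEK1ca was 67 in replicate 1 and 82 in replicate 2. The rule itself set these minima, since its limit of 1 CPM stood for 63.6 and 77.0 counts there.

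Levels can be compared between genes only per length, and CPM was therefore divided by the summed exon length in kilobases. On this scale the median member went from 0.157 in pCIG to 2.18 CPM per kb in MEK1ca. Among the 14783 genes with a count in any library the median was 7.86 in pCIG and 7.99 CPM per kb in MEK1ca, a level that 12 members exceeded in MEK1ca and 0 in pCIG. By rank among these genes, the median member moved from percentile 15.0 in pCIG to percentile 34.6 in MEK1ca. In MEK1ca 10 members reached at least 10 CPM per kb, 46 lay between 1 and 10, and 15 stayed under 1 CPM per kb. Most members thus became low-level transcripts, and a small group became moderately abundant.

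**Figure D2:**
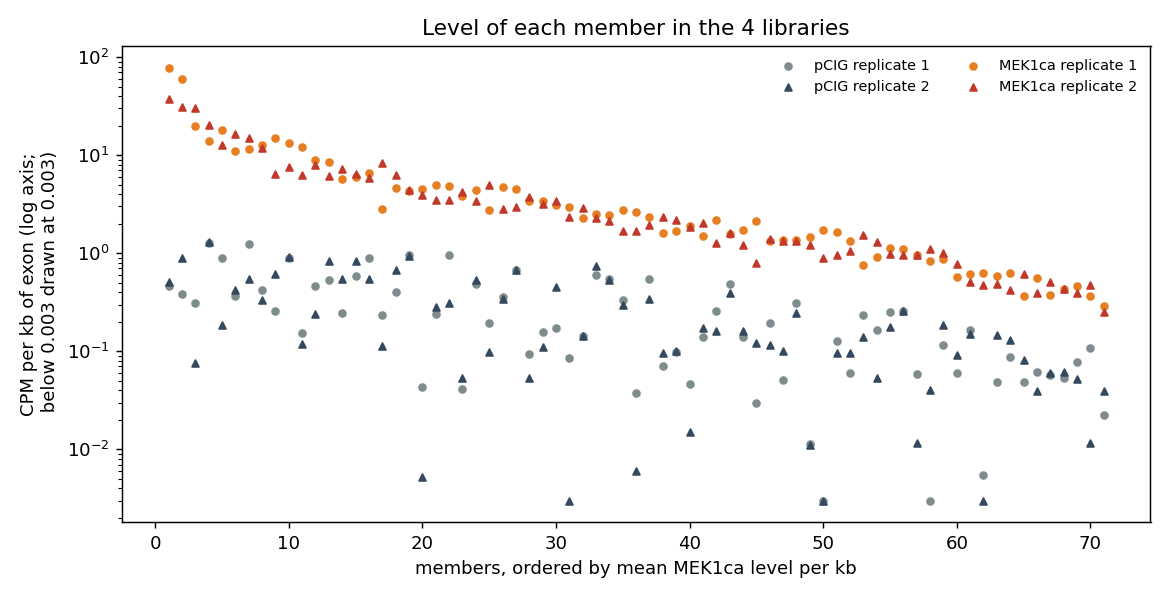
CPM per kb of exon (y axis, log scale) of the 71 members in each of the 4 libraries, ordered by mean MEK1ca level. Circles are replicate 1 and triangles replicate 2, with pCIG in grey and blue and MEK1ca in orange and red. Mean MEK1ca levels fall from 57.7 to 0.271 CPM per kb, while pCIG levels reach at most 1.31 CPM per kb, scatter widely and are mostly lower towards the right.

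The most abundant member per length was ENSGALG00000005209, on the plus strand of chromosome 2 at 1094833 to 1112902, with 4 exon blocks. It had 62 and 70 control counts against 8574 and 4912 in MEK1ca, which correspond to 0.805 and 0.885 against 135 and 63.8 CPM. The MEK1ca libraries differed from each other by 2.11-fold, yet both lay far above the controls. Per kilobase its level went from 0.491 to 57.7 ± 29.2 CPM (SD, n = 2), a 117-fold ratio of mean CPM, and its rank from percentile 22.7 to percentile 88.2.

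ENSGALG00000015332, on the plus strand of chromosome Z at 52082066 to 52346243, followed with 45.2 ± 20.1 CPM per kb in MEK1ca (SD, n = 2). It had 16 and 38 control counts against 2041 and 1286 in MEK1ca. Its 6 exon blocks sum to 540 bases over a span of 264177 bases, the longest span of any member. In MEK1ca replicate 1 it lay below the most abundant member, at 59.39 against 78.33 CPM per kb, and in replicate 2 at 30.93 against 37.09.

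Next in order was a gene on the plus strand of chromosome 24 at 6119941 to 6122966, with 25.0 ± 7.50 CPM per kb in MEK1ca (SD, n = 2). It went from 0.208 and 0.0506 CPM to 13.2 and 20.3 CPM. In this gene MEK1ca replicate 2 was the higher library, unlike in the first pair. The minus-strand gene of chromosome 2 at 44414500 to 44419173 had 0.870 and 0.885 CPM in the controls, close to the upper limit of the rule, against 9.43 and 13.7 CPM in MEK1ca, or 17.1 ± 4.46 CPM per kb.

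On chromosome Z, the minus-strand gene at 13833652 to 13891525 had 65 and 14 control counts against 1096 and 919 in MEK1ca, and reached 15.4 ± 3.94 CPM per kb. The plus-strand gene at 81615205 to 81720849 had 0.558 and 0.443 CPM in the controls against 16.6 and 15.5 CPM in MEK1ca. Its MEK1ca libraries were the more alike of the pair, and its level was 12.2 ± 0.591 CPM per kb. In MEK1ca replicate 1 it lay below the former, at 12.62 against 18.15 CPM per kb, and in replicate 2 at 11.78 against 12.58.

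On chromosome 6 the minus-strand gene at 18907922 to 18916250 had 44 and 52 control counts against 1099 and 1990 in MEK1ca, or 13.9 ± 3.90 CPM per kb. The chromosome 23 gene at 5614425 to 5622751 went from 0.364 and 0.278 to 28.9 and 14.8 CPM. On chromosome 3 at 99922984 to 99942855, a gene had 31 and 76 control counts against 1491 and 772 in MEK1ca. In both of these genes MEK1ca replicate 1 was about as far above replicate 2 as in the most abundant member.

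Long genes were also found among the most strongly counted members. The chromosome 7 gene at 20575083 to 20613175, with 25 exon blocks, went from 0.753 and 0.885 to 15.3 and 10.8 CPM, but per kilobase it reached only 4.20 ± 1.05 CPM. The gene on chromosome 11 at 766212 to 773374 went from 0.623 and 0.632 to 9.98 and 12.5 CPM. At 2.57 ± 0.415 CPM per kb it was near the median of the members. Ranked by CPM alone, such genes would seem more abundant than they were.

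Several of the largest ratios belonged to members near 0 in the controls, although the most abundant member, with 117-fold, was among the higher control values. The chromosome 4 gene at 11290443 to 11296120 was the one member with 0 counts in both pCIG libraries, against 219 and 136 in MEK1ca. It was at least 67.7-fold higher when the pCIG libraries are set to a floor of 3 counts each. A gene of 37 exon blocks on chromosome 1 (minus strand), at 75769353 to 75804565, had 2 and 0 control counts against 186 and 170 in MEK1ca. Summed over libraries this was a 198-fold ratio, with an exact 95% counting interval of 54.3 to 1637. Such wide intervals show how little the controls fix the size of a ratio near 0, and they cover at most counting error.

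On chromosome 2, the gene at 125754667 to 125783019 combined a near-absent control signal with a high count in MEK1ca. It had 16 and 2 control counts against 1405 and 1452 in MEK1ca, a 176-fold ratio with a counting interval of 111 to 298. Its control libraries disagreed, at 0.208 and 0.0253 CPM, a spread that this interval leaves out. By the edgeR fit its log2 fold change was 7.47 with all libraries, 9.57 without pCIG replicate 1 and 6.64 without pCIG replicate 2. The chromosome 14 gene at 9061602 to 9069704 had 2 counts in each pCIG library and 212 and 214 in MEK1ca, a 118-fold ratio (45.8 to 436). The gene on chromosome 10 at 3588343 to 3607364 had 6 and 1 counts against 352 and 274, a 99.2-fold ratio (47.9 to 248). Its interval likewise leaves out the gap between its control libraries, at 0.0779 and 0.0127 CPM. These genes were on in each MEK1ca library to a like degree, since the MEK1ca libraries of each differed by at most 1.55-fold.

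Over all members, with the gene at 0 taken at its bound, the median ratio of mean CPM was 11.3. It was under 5 for 10 members, 5 to 10 for 20, 10 to 30 for 24 and at least 30 for 17. The smallest ratio was 3.56, and the largest among members with counts in pCIG was 198. By the fitted values of edgeR the median log2 fold change of the members was 3.51, from 1.85 upward, whereas over all 13024 tested genes it was -0.005. This difference follows from the choice of the members.

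All 71 members entered the edgeR fit across all genes, and 70 were called higher at a Benjamini-Hochberg adjusted p under 0.05. Among all tested genes 8.18% were called higher, and among the 1789 tested genes under 1 CPM in both pCIG libraries 8.33%. The rule used this contrast, and nothing is read from the comparison. By the rule both MEK1ca libraries lay above both pCIG libraries in all 71 members, as they did in 26.9% of all tested genes. The member that was not called, on chromosome 9 at 18772273 to 18779087, had 36 and 4 control counts against 102 and 160 in MEK1ca, with a log2 fold change of 2.86 and an SE of 0.80. Its control libraries disagreed by more than its MEK1ca libraries did. Without pCIG replicate 2, 58 members were called, where 2.87% of the other tested genes were called higher, and without pCIG replicate 1, 63, where 3.37% were. The most abundant member was among those that lost their call without pCIG replicate 2, at an edgeR adjusted p of 0.124 against 0.0165 with all libraries.

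Just inside the 3-fold limit stood genes on chromosome 23 at 823570 to 860967, on chromosome 2 at 84812789 to 85025689 and on chromosome 1 at 112385725 to 112404316. Their ratios of the lower MEK1ca to the higher pCIG value were 3.08, 3.09 and 3.18. Just outside it were genes on chromosome 1 at 33258736 to 33261450, on chromosome 5 at 37393657 to 37400127 and on chromosome 2 at 33741966 to 33985846, with ratios of 2.84, 2.60 and 2.52. At the MEK1ca limit, the member on chromosome 5 at 51829755 to 51839632 had 1.05 and 1.06 CPM. Next came members on chromosome 6 at 16853837 to 16862212, with 1.57 and 1.30 CPM, and on chromosome Z at 10173890 to 10175311, with 1.56 and 1.35 CPM. A gene left out on chromosome 24 at 3531090 to 3553567 had 1.54 and 0.987. At the control limit, a gene left out on chromosome 8 at 5564250 to 5580305 had 1.12 and 1.14 CPM in the controls against 31.9 and 28.4 CPM in MEK1ca. Only its control level kept it out.

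The MEK1ca libraries were compared with each other gene by gene, because the rule bounds both from below but does not fix their ratio. MEK1ca replicate 1 was higher for 42 members and replicate 2 for 29. The ratio of the higher to the lower library had a median of 1.31 over the members and was under 1.5 for 53 of them. It was at least 2 for 5 members, or 7.04%, against 1.19% of the 8122 other tested genes at 1 CPM or more and up to the level of the most abundant member. Members at mean levels of 10 to 100 CPM, 13 in all, had a median ratio of 1.45, and 5681 other genes at these levels had 1.08. At 2 to 5 CPM 37 members had 1.36 and 997 other genes 1.20, and at 5 to 10 CPM 10 members had 1.19 and 956 other genes 1.15. Only at 1 to 2 CPM was the order the reverse, with 1.15 for 11 members and 1.20 for 507 other genes.

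Among other genes called higher in the same range, 620 in all, the median ratio between the MEK1ca libraries was 1.14, and 1.45% were at 2 or more. The call itself favours genes whose libraries agree, which the rule did not ask of members, so nothing is read from this comparison. The member with the widest gap lay on chromosome 3 (minus strand) at 76038226 to 76039341 and has a single exon block. It had 20 and 10 control counts against 201 and 720 in MEK1ca, or 3.16 and 9.35 CPM. In the opposite direction, a gene of 38 exon blocks on chromosome 22 at 1989333 to 2026713 had 6.60 and 2.47 CPM in MEK1ca, from 0.0909 and 0.379 CPM in pCIG. The libraries therefore did not differ by one common factor over the members, and the most abundant member, with its gap of 2.11-fold, is known only within that spread.

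**Figure D3:**
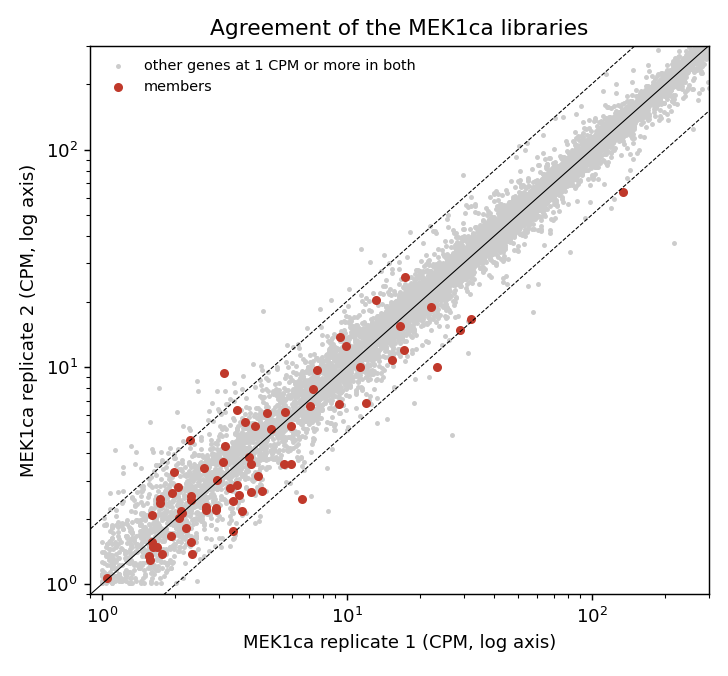
CPM in MEK1ca replicate 1 (x axis) and replicate 2 (y axis), on log axes, for members (red) and other genes at 1 CPM or more in both libraries (grey). The solid line marks equal values and the dashed lines a ratio of 2. Of the 71 members, 5 lie on or outside the dashed lines, on both sides.

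Gene models of members were longer than those of other weakly counted genes and shorter than those of other genes called higher. Their median summed exon length was 1720 bases, against 1131 for 3476 other genes under 1 CPM in both pCIG libraries with a count in any library. For all tested genes it was 2206 bases and for the 995 other genes called higher 3023 bases. The median span was 8375 bases in members and 21818 in the other genes called higher, with a median of 6 and 11 exon blocks. A single exon block was found in 6 members, or 8.45%, and in 26.6% of the other weakly counted genes, while 22 members had at least 10 blocks. At a given level per length a short gene gives fewer counts and reaches 1 CPM less easily. How far the limits of the rule shaped these lengths was not tested.

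The members lay on 22 of the 30 chromosomes or scaffolds that held tested genes, 34 of them on the plus strand. Chromosome Z held 9 members, or 12.7%, while it held 4.91% of tested genes and 4.02% of the other genes called higher. Chromosome 13 held 7, or 9.86%, against 2.30% of tested genes and 2.41% of the other genes called higher. Among the other weakly counted genes 5.93% lay on Z, 2.73% on chromosome 13 and 3.8% on chromosome 6. Chromosome 26 held 3 members, or 4.23%, against 1.57% of tested genes. Chromosome 6 held 6, or 8.45%, against 3.56% of tested genes and 4.52% of the other genes called higher. The largest chromosome, chromosome 1, held 6 members as well, or 8.45%, although 13.6% of tested genes lie there. The members on Z were spread over its length between 10173890 and 81720849, and their MEK1ca levels ran from 0.671 to 45.2 CPM per kb. The tested genes on Z other than members had a median log2 fold change of -0.079. No test was made of these shares. Z is a sex chromosome, and the part of embryo sex in them was not tested.

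**Figure D4:**
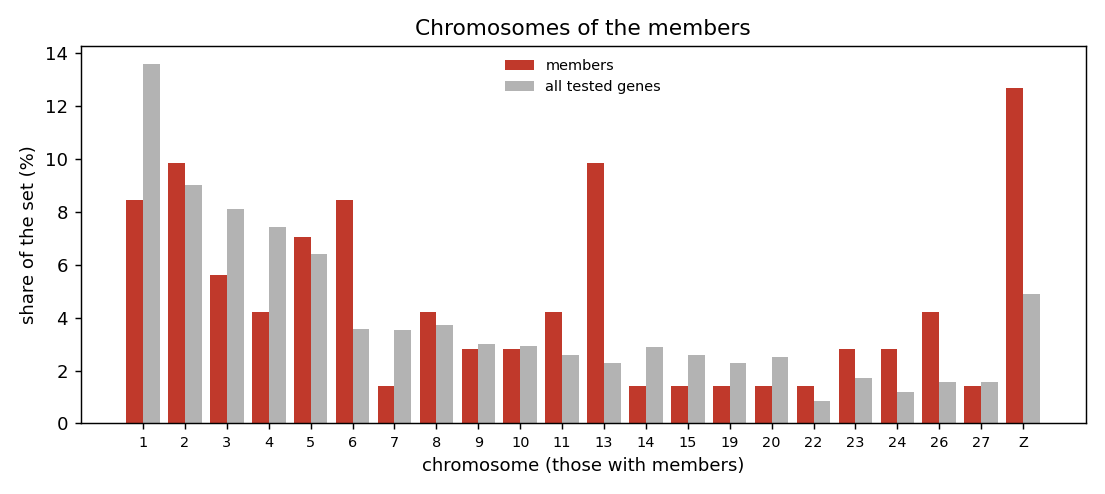
Share of the 71 members (red) and of the 13024 tested genes (grey) on each chromosome that holds a member, in percent. Z and chromosome 13 hold 12.7 and 9.86% of members against 4.91 and 2.30% of tested genes, and chromosome 1 holds 8.45 against 13.6%.

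Most members had no other member within 100 kb. The 6 that did formed 3 pairs. One pair on chromosome 13 consisted of minus-strand genes at 16595217 to 16596110 and 16670608 to 16671501, each a single exon block of 894 bases. The former had 47 and 48 control counts against 258 and 204 in MEK1ca, and the latter 66 and 22 against 276 and 242. Whether they are near-identical copies could not be examined without sequence. Reads of such copies can be divided between them in counting, so their separate values are uncertain.

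The pair on chromosome 26 lay head to tail on the plus strand, 4663 bases apart. The gene at 1545390 to 1549195 had 6 and 10 control counts against 112 and 106 in MEK1ca, and the gene at 1553858 to 1557199 had 3 and 1 against 102 and 120. In CPM both came to the same level, 1.57 ± 0.271 and 1.58 ± 0.0314 (SD, n = 2), but per kilobase the latter was higher, at 1.89 against 1.20 CPM. The third pair lay on chromosome 6, where the plus-strand gene at 26971704 to 26991533 and the minus-strand gene at 26991279 to 27037248 meet at their 3' ends. Their exons share 60 bases. The former had 25 and 18 control counts against 452 and 508 in MEK1ca, and the latter 10 and 18 against 107 and 114. No source used here says whether the counting used strand, so that reads in the shared bases cannot be assigned to one of them.

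In all 7 members overlapped another gene, and in each case that gene was on the opposite strand. Exons were shared by 3 of them. Besides the pair on chromosome 6 this was the gene on chromosome 6 at 18719854 to 18734090, with 309 shared bases, whose partner had 0 CPM in 3 libraries and 0.0779 in MEK1ca replicate 2. The member on chromosome Z at 23350633 to 23353611 lies inside the span of an opposite gene that stood at 70.0 and 72.9 CPM in the controls against 72.5 and 76.1 in MEK1ca. That partner was thus at a steady level, while the member went from 0.584 and 0.304 to 11.4 and 10.03 CPM. With the 7 genes left out, 64 members remain.

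The genes next to members were not chosen by the rule, although they were measured in the same libraries. Of 107 tested genes directly flanking a member and not members themselves, 18 were called higher in MEK1ca, or 16.8%, and 5 lower, or 4.67%. Among all tested genes that are not members 7.68% were called higher and 5.78% lower, and with members included 8.18% and 5.75%. The share was 22.8% (13 of 57) for the gene directly upstream, taken in the direction of the member's transcription, and 10% (5 of 50) for the gene directly downstream. By strand it was 23.3% (14 of 60) for flanking genes on the same strand and 8.51% (4 of 47) for those on the opposite strand. The downstream and opposite-strand shares thus lay nearer to the 7.68% of other tested genes than the upstream and same-strand shares did. At 4 or 5 genes' distance the share called higher was 4.72% (10 of 212). No test over genes was made, and these shares are descriptions.

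**Figure D5:**
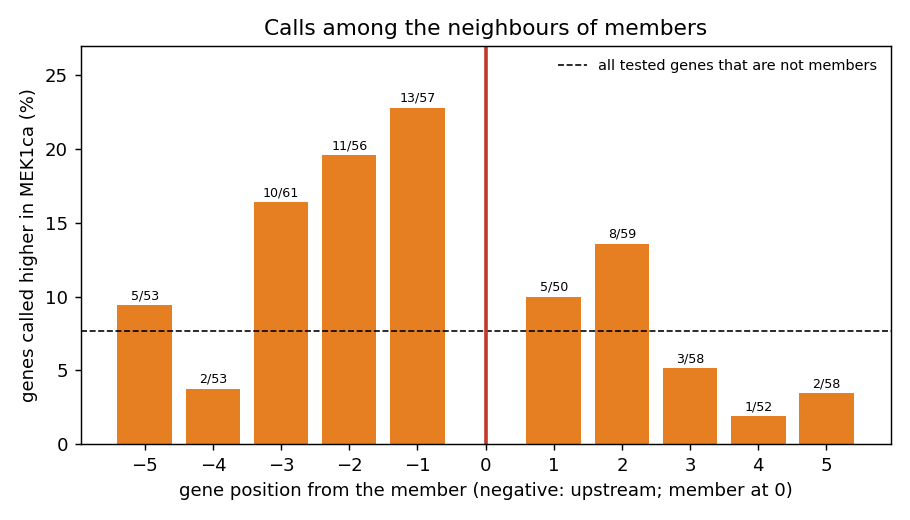
Percent of tested genes called higher in MEK1ca at each gene position around a member (negative positions are upstream), with the counts above the bars and members themselves left out. The dashed line marks 7.68%, the share among all tested genes that are not members. Shares are highest 1 to 3 genes upstream, at 22.8, 19.6 and 16.4%, and at or below 10% from the third position downstream onwards.

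Shares also differed by distance and strand in combination. Of same-strand flanking genes less than 10 kb away, 33.3% (8 of 24) were called higher, and of those farther away 16.7% (6 of 36). On the opposite strand and less than 10 kb away it was 11.1% (2 of 18). Whether close same-strand neighbours are parts of one transcript with the member was not tested. Leaving out either pCIG library, or MEK1ca replicate 1, lowered the share called higher among flanking genes and among other tested genes alike. In each of these fits, which leave a lone library in a group, the share among flanking genes of both sides together stayed the higher. For directly downstream genes alone it was the lower without pCIG replicate 1.

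Single neighbourhoods differed in which gene had the higher level per length. On chromosome 8 the member at 5583223 to 5589430 had 0 and 10 control counts against 166 and 265 in MEK1ca, or 0.963 CPM per kb in MEK1ca. The same-strand gene 2918 bases upstream, the one left out by its control level, went from 0.194 to 5.2 CPM per kb on average. There the neighbour was called higher as well and was the more abundant gene per length.

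On chromosome 1 the member at 133227061 to 133252726 went from 10 and 2 counts to 135 and 164, or 0.964 CPM per kb in MEK1ca. Its upstream neighbour, 18025 bases away on the same strand, went from 0.282 to 3.77 CPM per kb. The next gene upstream, 41905 bases from the member and also on the same strand, went from 0.407 to 56.9 CPM per kb, with a log2 fold change of 7.15. The member was thus the least abundant of these 3 genes per length, all of which were called higher. One gene farther upstream, 108040 bases from the member and on the same strand, was called higher too. It went from 0.0523 to 0.414 CPM per kb and so stayed below the member.

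On chromosomes 14 and 7 the member had the higher level per length. The chromosome 14 gene at 9061602 to 9069704 had 1.34 CPM per kb in MEK1ca, and the same-strand gene 2969 bases upstream had 0 counts in both pCIG libraries and a mean of 0.460 CPM per kb in MEK1ca. On chromosome 7, the gene 2973 bases downstream of the member at 20575083 to 20613175 went from 0.0132 to 0.168 CPM per kb, below the 4.20 CPM per kb of the member. The chromosome 23 gene at 5614425 to 5622751, with 9.22 ± 4.21 CPM per kb in MEK1ca (SD, n = 2), had called neighbours on both sides. The downstream one went from 0.295 to 0.634 CPM per kb and the upstream one from 6.63 to 10.9, against a mean of 9.22 for the member. The upstream gene and the member were not compared library by library. Of the 71 members, 19 had a directly flanking gene called higher, other members included, and 52 had none. The like share over all genes was not computed, so nothing is read from this count.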

How the data were processed

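RNA-seq was available for 2 pCIG and 2 MEK1ca libraries. The authors deposited whole-number counts per Ensembl gene. Subread, featureCounts and DESeq, without versions, and the build galGal4 come from the submitters' processing notes. The strand setting and the treatment of multi-mapped reads are not given in the sources used here. A deposited table of the authors' own comparison (mean, log2 fold change, error, statistic, p and adjusted p) was not used. The members and the gene lists were chosen with earlier results of these data known, and the lists could not be matched: 0 identifiers had a symbol.

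CPM was computed from library totals, and CPM per kb from the deposited summed exon length. Exon blocks are the non-overlapping intervals listed for a gene. Genes kept by filterByExpr (13024) were tested two-sided in edgeR 4.0.16 (R 4.3.3) with TMM scaling, robust glmQLFit and glmQLFTest, and group as the only term, with Benjamini-Hochberg adjustment. SEs were derived from the F statistic. The fit was tested on simulated counts. Alternatives used RLE factors, library totals, DESeq2 1.42.0, limma-voom 3.58.1, other filters and limits, a replicate block and leaving out each library. Counting intervals are exact binomial at 95%. The authors describe linear amplification of the cDNA, PCR of the libraries and paired-end reads. Intervals and floors treat each count as an independent molecule, which amplified copies are not. They therefore cover at most counting error and can be too narrow. Each library was made from a separate RNA sample of pooled embryos, so the spread is that between such pools. The rule for genes given in full took the 12 members of highest mean MEK1ca CPM, members at 0 in both pCIG libraries, those nearest the limits, those within 100 kb of another and the 3 with the widest MEK1ca gap. Further genes were chosen after their values were seen.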

Additional observations from a re-analysis of the deposited data

How the results depend on the processing

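The number of genes chosen by the rule was 71, and 52 to 75 with TMM-scaled CPM, limits of 0.5 or 2 CPM, a 5-fold limit or no exclusions. It was 82 to 98 when a library was left out of the rule. That can only loosen the limits, so all 71 were kept by construction. With a limit of 0.5 CPM 46 of the 71 were chosen, and with 2 CPM 54. Under the other scalings, tools and filters and the block, 66 to 71 members were called higher, where 6.7 to 11.7% of other genes were called. At an adjusted p under 0.01 there were 61, against 3.50% of other genes. With a 2-fold minimum there were 70, against 3.05%. The fewest were called without pCIG replicate 2. Since the rule used this contrast, nothing is read from these counts. The median log2 fold change of members was 3.48 to 3.52 under the other scalings, tools and filters and the block, and 3.43 to 3.68 without one library, where a lone library was assumed to vary like the other group. Members with another member near numbered 6 within 100 kb, 10 within 500 kb and 11 within 1 Mb, wider by construction. The share of flanking genes called higher was 15.0 to 18.3% under other scalings, tools and filters, where 6.7 to 8.5% of other genes were called. It was 8.41% at an adjusted p under 0.01, a stricter limit by construction, where 3.50% of other genes were called. With a 2-fold minimum it was 11.2%, against 3.05% of other genes. It was 6.42 to 17.6% without one library. In each fit without one library, the flanking share of both sides together was above the share among other tested genes in that same fit. The share of directly downstream genes alone was below it without pCIG replicate 1 and without MEK1ca replicate 2. With the replicate block, a pairing that no label states, 69 members were called, the median log2 fold change was 3.48 and 24.3% of flanking genes were called against 11.7% of other genes. Across genes, the deviations of same-numbered libraries from their group means had a correlation of 0.206, and 2 pairs are too few to take the numbers as pairing. Of 297 values for 27 members under alternatives, 28 lost their call and 0 changed sign. The rule set both MEK1ca libraries at least 3-fold above both pCIG libraries. The constant sign therefore follows from the choice of the members. The call of the most abundant member on chromosome 2 was lost with limma-voom and without the filter. The members on chromosome 3 at 99922984 to 99942855 and on chromosome 22 at 1989333 to 2026713 lost theirs in both settings too. With the replicate block these members on chromosomes 3 and 22 also lost their call, while the most abundant member kept it. Depth limits the ratios of members with few counts in pCIG, of which 7 had at most 10 counts in sum. The comparison of neighbours under each setting and the omission of overlapping genes were added after seeing the data.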

Other observations

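The gene left out on chromosome 16, at 177447 to 186760, had 19 and 16 control counts against 99 and 114 in MEK1ca, or 0.247 and 0.202 against 1.56 and 1.48 CPM. Its values are like those of the weaker members.

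Counts in MEK1ca replicate 2 were even for 66 of the 71 members, or 93.0%, whereas in MEK1ca replicate 1 they were even for 37, or 52.1%. Among all genes with 1 to 99 counts the shares were 98.5 and 51.5%. In pCIG, 63.8% of the 69 members with a count in replicate 1 and 75% of the 68 in replicate 2 were even. Among all genes with 1 to 99 counts the pCIG shares were 56.1% in replicate 1 and 52.8% in replicate 2. What makes these counts even was not tested.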
